A study of Rattus norvegicus with 22 samples.

Results

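Severe pulmonary embolism (Severe PE) in the rat lung was compared with Vehicle at 2 h after injection, with 7 of the 22 arrays of the series. The 4 Severe PE rats had received 2000000 polystyrene microspheres of 25 micron per 100 g body weight through the right jugular vein, suspended in 0.01% Tween 20. The 3 Vehicle rats had received the same volume of 0.01% Tween 20 without microspheres. Members were taken from the sample labels alone, and each array was 1 rat. The rats were male Sprague-Dawley animals, and in both groups the lungs had been lavaged with saline before they were removed. Whole crushed right lung was hybridized to Affymetrix rat genome arrays, so that RNA of vessels, airways, alveoli and the blood cells left in the tissue was measured together. In such tissue, fewer cells of a type and less RNA per cell cannot be told apart. Rats receiving 1300000 microspheres per 100 g (Mild PE, 4 arrays at 2 h), and the Severe PE and Vehicle rats studied 18 h after injection (4 and 3 arrays), served only for the comparisons of dose and time.

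Microspheres lodge in small pulmonary arteries, which raises the resistance against which the right ventricle pumps and stops flow beyond the plugged vessels. Cells answer mechanical and ischemic stress first with immediate early genes, whose transcription needs no new protein because the factors that switch them on, such as serum response factor and CREB, are already present. The products of these genes, among them Egr1, Fos and Atf3, are themselves transcription factors. In parallel, NF-kB released from its inhibitors turns on chemokines and cytokines as well as its own inhibitors, and heat shock factor turns on chaperones when proteins misfold.

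Signals are given on a log2 scale after quantile normalization, on which a difference of 1 is 2-fold and the lowest possible value, the floor, is 4. Signals below the floor made up 13.6% to 16.3% of probesets on the 7 arrays. Correlations of log2 signals between arrays of the same group lay between 0.9607 and 0.982, and those between the groups between 0.9581 and 0.9798. The 3′ signal of the Gapdh control exceeded the 5′ signal by 0.525 on Severe PE array 1 and by 0.346 on Vehicle array 3, and by 0.182 to 0.261 on the other 5 arrays. These 2 arrays stood apart from the rest of their groups in this measure of RNA integrity. Counts of the gene lists without them are given below. Lung markers were present at high level on every array, with a summed signal of 10 alveolar type II cell genes of 143116 to 151458 in Severe PE and 142756 to 150911 in Vehicle.

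At 2 h, a small set of genes was higher in Severe PE. By the test of the 7 arrays (limma, adjusted p under 0.05 and at least 1.5-fold), 7 of 31042 probesets changed, which is 0.0226%, and all 7 were higher in Severe PE. They were 6 genes, Pvr, Hbegf, Bhlha15, C2cd4b, Atf3 and Egr1 (0.0422% of 14217 genes), and 1 probeset carrying the symbols of both Hspa1a and Hspa1b. No gene fell in this test. At an unadjusted p under 0.05, 1342 probesets were higher and 1038 lower. When all 22 arrays of the series shared 1 estimate of the spread, 188 probesets passed (0.606%), 169 higher and 19 lower, and 6 of the first 7 were among them. These covered 113 genes higher (0.795%) and 15 lower (0.106%) in Severe PE. In 127 of the 128 the groups did not overlap, a description only, because the same 2-h values had chosen these genes. Over all genes, 1.98% were higher and 0.950% lower by at least 1.5-fold with no overlap. The count with the 7 arrays was 0 without Severe PE array 2, without Vehicle array 3 or without both arrays of high 3′ signal, 3 without Severe PE array 3 or array 4, 11 without Vehicle array 2 (7 higher and 4 lower) and 16 without Vehicle array 1 (7 higher and 9 lower). Without Severe PE array 1 it was 7, with 5 higher and 2 lower, and 2 of these were among the first 7.

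**Figure D1:**
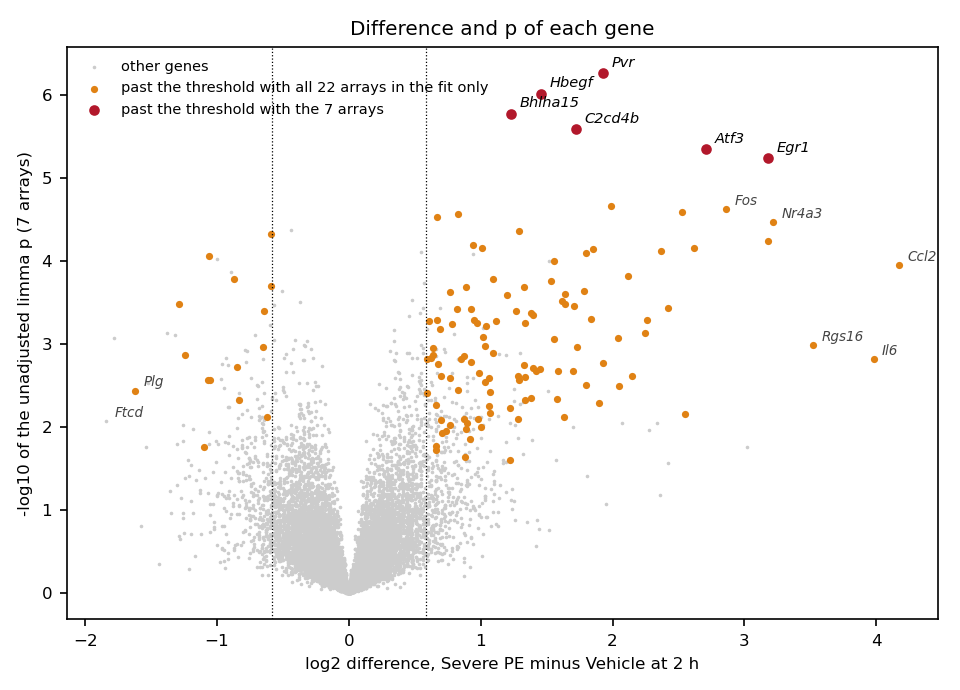
Each point is 1 of 14217 genes, with the log2 difference of Severe PE minus Vehicle at 2 h on the x axis and -log10 of the unadjusted limma p of the 7 arrays on the y axis. The 6 genes past the threshold with the 7 arrays all lie on the right, while those past it only with all 22 arrays in the fit lie on both sides, and dotted lines mark 1.5-fold.

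Because so few genes passed the test, gene groups are described by how many members differed by at least 1.5-fold with no overlap between the 4 Severe PE and 3 Vehicle arrays. Over all genes, 282 were higher in Severe PE by this rule (1.98%) and 135 lower (0.950%). Of these, 112 were at least 2-fold higher (0.788%) and 27 at least 2-fold lower (0.190%), and 25 were at least 4-fold higher and 0 at least 4-fold lower. The median difference over all genes was 0. Without the 2 arrays of high 3′ signal, which leaves 3 against 2, the same rule took 465 genes higher (3.27%) and 400 lower (2.81%).

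The genes that changed encode a surface receptor, a growth factor and transcription factors. Pvr, the poliovirus receptor, an adhesion molecule of the nectin family that NK cell receptors recognise, had log2 signals of 10.6, 10.8, 10.53 and 10.73 in the Severe PE rats and 8.74, 8.66 and 8.8 in the Vehicle rats. It rose by 1.93 ± 0.08 on the log2 scale (SE, limma adjusted p = 0.0148). Hbegf, a heparin-binding ligand of the EGF receptor, stood at 8.99, 9, 8.89 and 9.15 in Severe PE and at 7.53, 7.57 and 7.56 in Vehicle, a rise of 1.46 ± 0.07 (adjusted p = 0.0148). In both genes the distance between the groups was many times the spread within them. Bhlha15 (Mist1), a transcription factor of secretory cells, read 6.4, 6.45, 6.35 and 6.44 in Severe PE and 5.3, 5.1 and 5.14 in Vehicle, a rise of 1.23 ± 0.06 (adjusted p = 0.0173). Its signal was low, and the 18-h Vehicle rats read 6.32, 6.52 and 6.35, about the level of Severe PE at 2 h. C2cd4b, a nuclear protein reported to respond to inflammatory cytokines in human endothelial cells, read 8.32, 8.52, 8.33 and 8.19 in Severe PE and 6.54, 6.75 and 6.56 in Vehicle, a rise of 1.72 ± 0.1 (adjusted p = 0.0198). It was the 1 gene of the 6 that did not pass with all 22 arrays in the fit (adjusted p = 0.305). The 18-h Vehicle rats, which enter that fit, read 7.24, 4 and 7.72. In the 7 fits that each left out 1 array, the adjusted p reached at most 0.067 for Pvr and Hbegf, 0.076 for Bhlha15, 0.0916 for C2cd4b, 0.0988 for Atf3 and 0.133 for Egr1. It went down to 0.0187 for Egr1 but only to 0.0512 for Atf3, which thus passed in none of the 7.

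**Figure D2:**
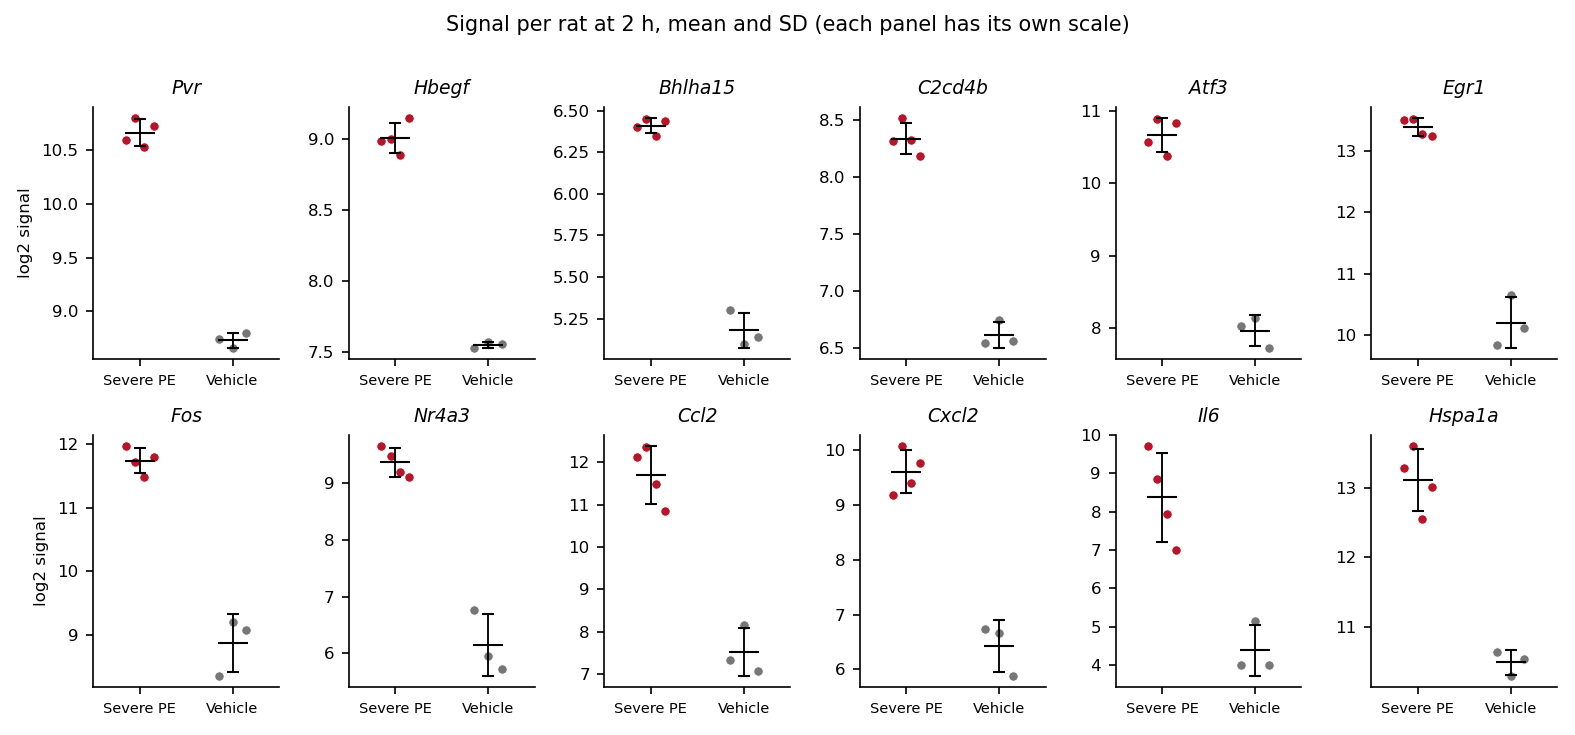
Log2 signal of 12 genes in each Severe PE rat (left, n = 4) and each Vehicle rat (right, n = 3) at 2 h, with the mean and SD of each group and a separate scale for each gene. The groups do not overlap in any panel, and Il6 and Ccl2 show a wider spread within Severe PE than Pvr and Hbegf.

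Immediate early genes were one of the groups with the highest share of higher members. Of 22 measured Egr, Nr4a and other immediate early genes, 12 were higher in Severe PE with no overlap and 0 lower, and the median difference of the 22 was 0.77. All 22 differences were positive, and 10 genes passed with all 22 arrays in the fit. Without the 2 arrays of high 3′ signal, 13 of the 22 were higher with no overlap. Egr1, a zinc finger factor induced by stretch, growth factors and ischemia, read 13.51, 13.52, 13.28 and 13.25 in Severe PE and 9.85, 10.66 and 10.12 in Vehicle. It rose by 3.18 ± 0.2 (limma adjusted p = 0.0254). Its relative Egr2 stood at 10.66, 11.1, 10.78 and 10.26 in Severe PE and at 7.96, 8.28 and 8.27 in Vehicle, a difference of 2.53 ± 0.21 that missed the threshold with 7 arrays (adjusted p = 0.0608). The orphan nuclear receptor Nr4a3 showed 9.66, 9.49, 9.21 and 9.12 in Severe PE and 6.77, 5.95 and 5.73 in Vehicle (difference 3.22 ± 0.28, adjusted p = 0.0661). Ier3, an antiapoptotic early gene, averaged 12.88 ± 0.24 in Severe PE and 10.89 ± 0.2 in Vehicle (SD, n = 4 and 3, difference 1.99, adjusted p = 0.0608). None of these last 3 genes overlapped between the groups, and all 3 passed with all 22 arrays in the fit.

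The promoters of Egr1 and Egr2 are shown because the CArG box, the site through which serum response factor acts on immediate early genes, can be read in them. The windows run from 250 bases before to 50 bases after the annotated start (RefSeq, build GRCr8), 5′ to 3′ in the direction of the gene, with matches to CC, 6 letters A or T, GG in capitals. Egr1 lies at chr18:26736828-26737127 on the plus strand, and Egr2 at chr20:21054392-21054691 on the minus strand.
Egr1: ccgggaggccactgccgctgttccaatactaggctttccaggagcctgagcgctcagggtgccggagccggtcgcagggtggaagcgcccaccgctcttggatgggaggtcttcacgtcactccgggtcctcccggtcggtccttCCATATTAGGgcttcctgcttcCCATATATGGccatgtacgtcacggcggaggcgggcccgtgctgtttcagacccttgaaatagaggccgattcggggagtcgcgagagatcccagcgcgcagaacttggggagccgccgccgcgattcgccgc
Egr2: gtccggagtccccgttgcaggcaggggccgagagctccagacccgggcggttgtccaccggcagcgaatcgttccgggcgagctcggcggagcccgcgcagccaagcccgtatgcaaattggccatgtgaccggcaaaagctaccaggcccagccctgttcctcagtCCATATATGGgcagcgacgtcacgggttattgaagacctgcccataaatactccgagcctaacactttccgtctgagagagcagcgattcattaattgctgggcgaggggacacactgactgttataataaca
The Egr1 window holds 2 such boxes, beginning 105 and 83 bases before the start, and the Egr2 window holds 1, beginning 83 bases before it. The box nearer the start of Egr1 and that of Egr2 have the same letters.

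The AP-1 and related bZIP factors, which bind DNA as pairs, were mostly higher in Severe PE as well. Of 19 measured members, 11 were higher with no overlap and 0 lower (10 without the 2 arrays of high 3′ signal, and 1 lower), 10 passed with all 22 arrays in the fit, and the median difference was 0.93. Atf3, a stress-induced repressor and activator, had 10.57, 10.89, 10.38 and 10.83 in Severe PE and 8.03, 8.13 and 7.72 in Vehicle, and rose by 2.71 ± 0.17 (limma adjusted p = 0.023). Fos, the best known AP-1 subunit, read 11.97, 11.72, 11.49 and 11.79 in Severe PE and 8.36, 9.2 and 9.08 in Vehicle (difference 2.86 ± 0.23, adjusted p = 0.0608). Junb, a partner of Fos, read 11.35, 11.97, 11.44 and 11.43 in Severe PE and 9.42, 9.4 and 8.72 in Vehicle (difference 2.37 ± 0.24, adjusted p = 0.0882). Severe PE array 2 was the highest of its group for both Atf3 and Junb. Atf4, whose protein level is set mainly by translation, differed by 0.46 only.

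Several chemokine and cytokine genes had large differences, and some of them varied widely between embolized rats. Of 16 CC chemokines, 5 were higher with no overlap, as were 4 of 13 CXC chemokines and 7 of 21 cytokines and their antagonists, with 0 lower in each list. One of the CXC members is Pf4, which is also a platelet marker. Without the 2 arrays of high 3′ signal these counts were 6, 3 and 9, with 2, 2 and 0 lower. Ccl2, the main attractant of monocytes, had the largest difference of any gene whose groups did not overlap, at 12.11, 12.36, 11.48 and 10.84 in Severe PE and 7.34, 8.16 and 7.08 in Vehicle (4.17 ± 0.45, limma adjusted p = 0.0891). Every Severe PE rat lay above every Vehicle rat, but the Severe PE rats alone spanned more than 2-fold. Cxcl2, a neutrophil attractant, read 9.19, 10.08, 9.4 and 9.77 in Severe PE and 6.73, 6.67 and 5.88 in Vehicle (3.18 ± 0.31, adjusted p = 0.0882). Il6, the cytokine that drives the acute phase response, read 9.71, 8.84, 7.93 and 7 in Severe PE, while 2 of the 3 Vehicle rats were at the floor and the third stood at 5.16 (3.98 ± 0.71, adjusted p = 0.211). Its difference depends on where the floor is set. Tnf stood at 9.45, 10.4, 9.48 and 9.71 in Severe PE and at 7.87, 7.25 and 6.9 in Vehicle (2.42 ± 0.33, adjusted p = 0.136), and Il1b differed by 2.15 ± 0.42 (adjusted p = 0.255). Ccl2, Cxcl2, Il6, Tnf and Il1b all passed with all 22 arrays in the fit. Cxcl10, an interferon-induced attractant of T cells, did not (adjusted p = 0.143 in that fit), with 9.33, 11.56, 9.86 and 7.6 in Severe PE and 7.05, 6.31 and 6.34 in Vehicle.

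The list of NF-kB subunits and inhibitors, which also held Birc3, had the highest share of higher members of the 23 pathway lists. This ranking is a description, since the lists were chosen with earlier results of these data known. Of 12 measured genes, 8 were higher with no overlap and 0 lower (9 and 0 without the 2 arrays of high 3′ signal), all 12 differences were positive, the median was 0.86, and 7 passed with all 22 arrays in the fit. Those named here are inhibitors or survival proteins that NF-kB itself induces. Nfkbid, an atypical inhibitor, read 8.36, 9.22, 9.04 and 9.21 in Severe PE and 6.66, 7.71 and 6.7 in Vehicle (1.93 ± 0.35, limma adjusted p = 0.217). Nfkbia, the classical inhibitor, differed less but at a much higher signal, with 13.05, 13.29, 13.02 and 12.9 in Severe PE and 12.58, 12.38 and 12.33 in Vehicle (0.64 ± 0.11, adjusted p = 0.208). Birc3, an inhibitor of apoptosis, differed by 1.4 ± 0.26 (adjusted p = 0.234). Feedback inhibitors of MAP kinase and STAT signaling followed, with 11 of 23 higher, 0 lower and a median of 0.68 (also 11 and 0 without the 2 arrays of high 3′ signal). Rgs16, which shortens G protein signals, showed 10.29, 10.6, 9.92 and 8.72 in Severe PE and 5.46, 7.03 and 6.58 in Vehicle (3.52 ± 0.58, adjusted p = 0.198). In Rgs16, Severe PE array 4 lay well below the other 3. Only Tlr2 of 12 Toll-like receptors and inflammasome sensors was higher with no overlap (1.17 ± 0.4, adjusted p = 0.553), and the count was again 1 without those 2 arrays.

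The Nfkbia promoter is shown for the NF-kB site near its start. It lies at chr6:78597023-78597322 on the minus strand (same window and build), and the capitals mark a match to the NF-kB motif (GGGA, then A or C, then TTTCC, here on the opposite strand) that begins 31 bases before the start.
Nfkbia: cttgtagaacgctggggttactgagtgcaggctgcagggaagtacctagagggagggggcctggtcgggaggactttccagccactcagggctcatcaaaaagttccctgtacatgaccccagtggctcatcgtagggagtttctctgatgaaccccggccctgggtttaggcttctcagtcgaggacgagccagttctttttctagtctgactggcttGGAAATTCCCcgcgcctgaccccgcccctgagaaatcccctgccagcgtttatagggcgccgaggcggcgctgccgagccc

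Among growth factors, only Hbegf rose by the test of the 7 arrays. Hbegf, Areg and Ereg were the 3 genes of 19 measured EGF family and angiogenic growth factors that were higher with no overlap, 0 were lower, 8 of the 19 differences were below 0, and the median of the list was 0.04. The counts were 3 higher and 3 lower without the 2 arrays of high 3′ signal. Areg, amphiregulin, had 9.78, 9.82, 9.24 and 10.03 in Severe PE and 7.88, 8.28 and 8.06 in Vehicle (difference 1.64 ± 0.21, limma adjusted p = 0.124). Ereg, epiregulin, had 7.69, 7.32, 7.21 and 7.17 in Severe PE and 6.13, 5.99 and 6.31 in Vehicle (1.2 ± 0.15, adjusted p = 0.124). Both passed with all 22 arrays in the fit (adjusted p = 0.00448 and 0.0163). The promoter of Areg, at chr14:17265592-17265891 on the minus strand, is shown for its cyclic AMP response element TGACGTCA, the binding site of CREB, in capitals and 91 bases before the start.
Areg: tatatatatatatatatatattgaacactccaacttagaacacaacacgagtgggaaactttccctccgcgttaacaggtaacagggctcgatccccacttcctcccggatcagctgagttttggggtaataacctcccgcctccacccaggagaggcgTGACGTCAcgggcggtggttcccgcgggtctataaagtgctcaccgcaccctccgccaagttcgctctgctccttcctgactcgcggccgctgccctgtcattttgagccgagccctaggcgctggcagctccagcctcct

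Across the 92 of 113 genes higher in the fit on 22 arrays that had a promoter in the table, 8 letter motifs were searched on both strands. These shares are descriptions, since a match of letters is not a site in use. TGACGTCA was found in 9 of the 92 windows (9.78%), against 2.86% of the 11733 array genes with a window, and the AP-1 motif TGACTCA in 10 (10.9%), against 3.8%. The CArG box was found in 5 (5.43%), against 1.35%. The NF-kB motif, GGGA followed by A or C and then TTTCC, was found in 4 (4.35%), against 0.222%. The heat shock element, spelled GAANNTTCNNGAA or TTCNNGAANNTTC, was found in 1 (1.09%), against 0.452%. That window belongs to the adenosine receptor gene Adora2b, not to a chaperone gene. CCAAT was found in 34.8% of the 92 windows against 37.3% of array genes, TATAAA in 15.2% against 8.45%, and ACGTG in 22.8% against 24%.

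Heat shock genes split into a few members far above Vehicle and many close to it. Of 22 measured chaperones and cochaperones, Hspa1a, Dnajb1 and Bag3 were higher with no overlap and 0 were lower, and the median was 0.31. Leaving out the 2 arrays of high 3′ signal, 5 were higher. The probeset carrying both Hspa1a and Hspa1b, near-identical genes of inducible HSP70, read 13.78, 13.96, 13.1 and 13.54 in Severe PE and 9.7, 9.7 and 10.05 in Vehicle, and rose by 3.78 ± 0.23 (limma adjusted p = 0.023). Its signal cannot be assigned to either gene. The probeset annotated to Hspa1a alone read 13.28, 13.6, 12.55 and 13.01 in Severe PE and 10.64, 10.29 and 10.53 in Vehicle (2.62 ± 0.26, adjusted p = 0.0882). Dnajb1, the HSP40 partner of HSP70, read 12.62, 13, 12.59 and 12.84 in Severe PE and 11.51, 11.53 and 11.36 in Vehicle (1.29 ± 0.12, adjusted p = 0.0751). Bag3, a cochaperone that directs misfolded proteins to autophagy, differed by 0.95 ± 0.14 (adjusted p = 0.155). Severe PE array 3 was the lowest embolized array for all 4 probesets, and still lay above every Vehicle array. Of 25 genes of endoplasmic reticulum stress and ATF4 signaling, 3 were higher with no overlap, and 3 without the 2 arrays of high 3′ signal. They included Ppp1r15a, which restarts translation after stress (0.97 ± 0.14, adjusted p = 0.157), and Herpud1, a component of protein degradation at the endoplasmic reticulum (0.78 ± 0.11, adjusted p = 0.157).

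**Figure D3:**
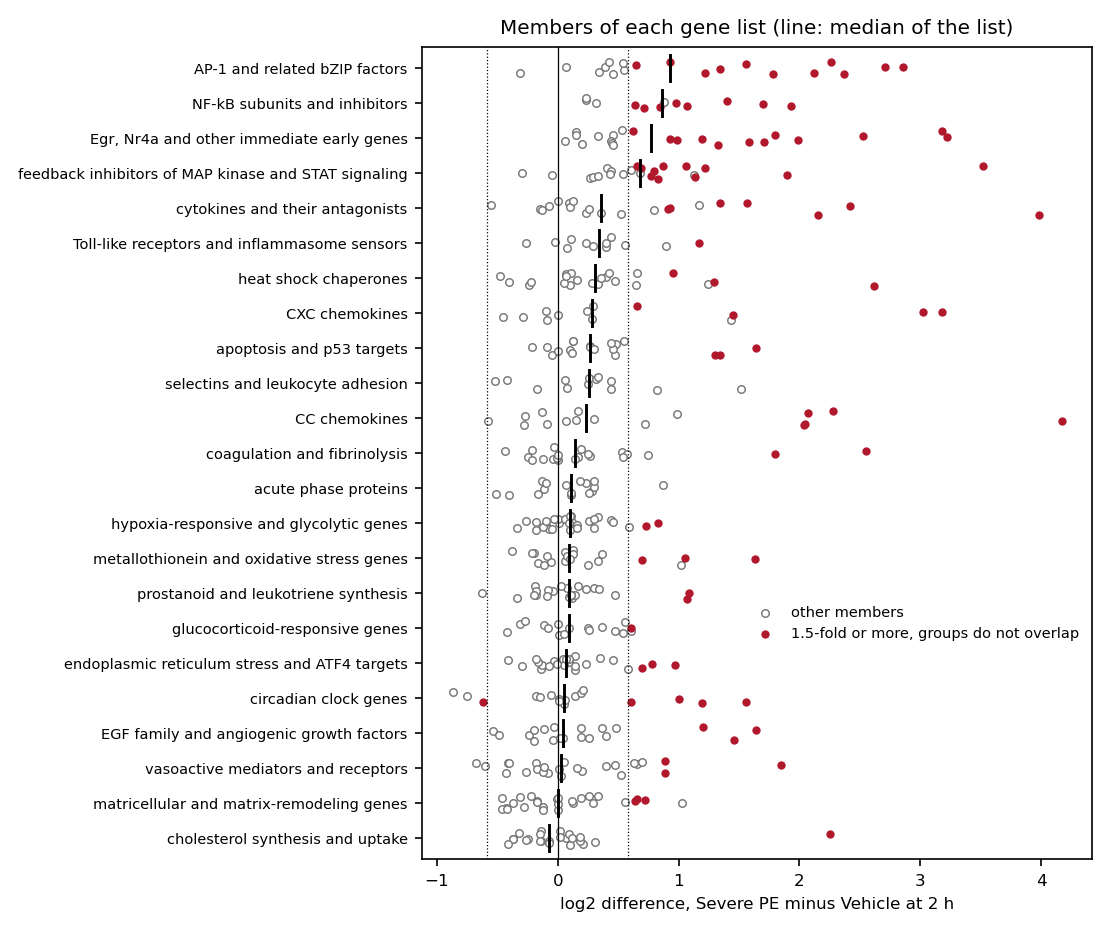
Each point is a gene of 1 of 23 pathway lists, placed by its log2 difference of Severe PE minus Vehicle at 2 h on the x axis, and the black line is the median of the list. Filled points are genes that differed by at least 1.5-fold with no overlap between the groups, as did 1.98% of all genes in the higher and 0.950% in the lower direction.

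Genes of the vessel wall and of clotting were mostly close to Vehicle at 2 h. Of 21 coagulation and fibrinolysis genes, Tfpi2 and Plaur were higher with no overlap and 0 lower. The list did not hold Plg, the plasminogen gene, which was lower with no overlap (-1.62) at low signal and is given below. Tfpi2, a protease inhibitor of the matrix, read 9.3, 9.81, 8.49 and 7.21 in Severe PE and 6.2, 6.24 and 6.03 in Vehicle (2.55 ± 0.63, limma adjusted p = 0.379). Plaur, the urokinase receptor, read 8.58, 9.8, 9.67 and 9.56 in Severe PE and 7.93, 7.8 and 7.08 in Vehicle (1.8 ± 0.37, adjusted p = 0.279). In each of these genes 1 embolized rat lay nearer to Vehicle than the others, array 4 for Tfpi2 and array 1 for Plaur. Of 25 vasoactive mediators and receptors, 3 were higher, led by the vasodilator adrenomedullin, Adm, at 9.41, 9.88, 9.54 and 9.63 in Severe PE and 8.09, 7.44 and 7.76 in Vehicle (1.85 ± 0.18, adjusted p = 0.0882). The adenosine receptors Adora2a and Adora2b both differed by 0.89 (SE 0.22 and 0.11, adjusted p = 0.376 and 0.116). None of 13 selectins and leukocyte adhesion genes was higher by the rule, and Icam1, which was already bright in Vehicle, differed by 0.25 ± 0.09 (adjusted p = 0.564). In that list 10 of the 13 differences were above 0, with a median of 0.26. Its largest difference was 1.52, in a gene whose groups overlapped. Of 23 prostanoid and leukotriene genes, Ptgs2 (cyclooxygenase-2, 1.07 ± 0.33, adjusted p = 0.508) and the prostaglandin receptor gene Ptger2 (1.09 ± 0.51, adjusted p = 0.708) were higher with no overlap. Without the 2 arrays of high 3′ signal the counts higher were 4 for coagulation, 5 for vasoactive, 0 for adhesion and 2 for prostanoid genes, with 1 vasoactive gene lower.

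Lists of hypoxia, acute phase and sterol genes held few higher members at this time. Of 29 hypoxia-responsive and glycolytic genes, 2 were higher with no overlap, Hk2 (0.73 ± 0.12, limma adjusted p = 0.202) and the lactate exporter Slc16a3 (0.83 ± 0.29, adjusted p = 0.564), and the median was 0.1. None of 16 acute phase genes was higher, with values for Saa3 of 8.02, 7.86, 6.16 and 6.07 in Severe PE and 5.99, 6.25 and 6.23 in Vehicle. Here 2 embolized rats stood above Vehicle and 2 within it. Of 23 cholesterol genes, Ch25h alone was higher, which makes 25-hydroxycholesterol, a signaling sterol that restrains cholesterol synthesis rather than a step of that synthesis. It read 11.82, 11.41, 10.93 and 10.53 in Severe PE and 9.23, 8.54 and 9 in Vehicle (2.25 ± 0.35, adjusted p = 0.177). Of 20 metallothionein and oxidative stress genes 3 were higher, among them Hmox1, the heme-degrading oxygenase (1.63 ± 0.41, adjusted p = 0.385), and Mt2A, a zinc-binding metallothionein (1.05 ± 0.36, adjusted p = 0.549). The remaining lists gave 1 of 17 glucocorticoid-responsive genes, 3 of 27 matricellular and matrix-remodeling genes, 4 of 17 clock genes and 3 of 19 apoptosis and p53 targets higher. The clock list held the 1 pathway gene that was lower with no overlap. Without the 2 arrays of high 3′ signal the matricellular count was 1 and the clock count 3, the other counts of this paragraph were the same, and 1 oxidative stress gene and 1 clock gene were lower. Timp1, an inhibitor of matrix proteases, differed by 0.64 ± 0.11 (adjusted p = 0.198), and Phlda1, an early gene of the apoptosis list, by 1.64 ± 0.22 (adjusted p = 0.132). Bhlhe40 and Nfil3, which belong to the clock list and to an early gene list, differed by 1.19 ± 0.21 and 1.56 ± 0.25 (adjusted p = 0.208 and 0.189).

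Fewer genes were lower in Severe PE, and the largest negative differences sat at the lower end of the scale. The 10 genes with the largest negative difference and no overlap ranged from -1.84 (Ftcd, a liver-type enzyme of histidine breakdown) to -1.29 (Ina, a neurofilament protein). Plg, the precursor of plasmin, read 4, 4, 5.16 and 4.08 in Severe PE and 5.66, 5.84 and 6.28 in Vehicle (-1.62 ± 0.34, limma adjusted p = 0.293). Ina read 4, 4.18, 4.25 and 4.26 in Severe PE and 5.66, 5.66 and 5.06 in Vehicle (adjusted p = 0.132). Both passed with all 22 arrays in the fit (adjusted p = 0.0317 and 0.012). Ppm1m (-1.78), Klrb1c (-1.54), Coch (-1.52), Tmem182 (-1.38), Nr5a2 (-1.32) and Abcd2 (-1.3) likewise had at least 1 Severe PE array at the floor, so that their differences depend on it. Nt5dc1 (-1.58 ± 0.97) read 4.14, 7.38, 8.01 and 7.36 in Severe PE and 8.51, 8.37 and 8.01 in Vehicle, with Severe PE array 1 far below the others. Smaller negative differences were also found well above the floor, in 2 probesets chosen here after their values were seen. That of Hoxa5 read 9.81, 9.78, 10.02 and 10.15 in Severe PE and 11.08, 10.9 and 11.02 in Vehicle (-1.06 ± 0.11, adjusted p = 0.0886). That of Hey2 differed by -1.24 ± 0.22 (adjusted p = 0.207). Both passed with all 22 arrays in the fit (adjusted p = 0.0156 and 0.00518).

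Of 17 cell type lists, the platelet markers had a summed signal that did not overlap between the groups with all 7 arrays, and 4 more lists did not overlap without the 2 arrays of high 3′ signal. With so few arrays, above all 3 against 2, sums of several of 17 lists can separate by chance. These sums are therefore descriptions. The sum of the 8 platelet genes was 10924 to 13939 in Severe PE and 6209 to 9113 in Vehicle, and 7 of the 8 differences were above 0. The platelet chemokine Pf4 read 12.56, 12.71, 13.04 and 12.71 in Severe PE and 12.31, 12.2 and 11.78 in Vehicle (0.66 ± 0.17, limma adjusted p = 0.399). Clec1b, the podoplanin receptor of platelets, differed by 0.83 ± 0.15 (adjusted p = 0.211). Vehicle array 3, 1 of the 2 arrays of high 3′ signal, had the lowest platelet sum. Neutrophil markers summed to 5426 to 14845 in Severe PE and 5231 to 9388 in Vehicle, and monocyte and macrophage markers to 33332 to 41759 and 31323 to 33934, both overlapping. Of 8 natural killer cell markers all 8 differences were below 0 (median -0.41), and Klrb1a, a receptor gene, was lower with no overlap at 8.59, 8.88, 8.5 and 8.29 in Severe PE and 9.81, 9.54 and 9.08 in Vehicle (-0.92 ± 0.22, adjusted p = 0.357). The natural killer sums overlapped through Vehicle array 3, at 3319 to 6261 in Severe PE and 4170 to 8530 in Vehicle. With the 2 arrays of high 3′ signal left out, they lay at 3319 to 6261 in Severe PE and 7213 to 8530 in Vehicle. By the rule on these 5 arrays, 5 of the 8 genes were lower with no overlap, as were 2.81% of all genes. Without the same arrays T lymphocyte markers summed to 5259 to 6798 in Severe PE and 7755 to 9193 in Vehicle, with 3 of 10 genes lower in place of 0, and B lymphocyte markers to 1398 to 1693 and 1736 to 2066. Platelet sums were then 11710 to 13939 in Severe PE and 8445 to 9113 in Vehicle, and erythroid sums 31802 to 32958 and 30042 to 31313. Endothelial markers were below 0 in 12 of 14, with a median of -0.11, and Pecam1 differed by -0.52 ± 0.15 (adjusted p = 0.483). The part of these cell types in the gene differences above was not tested.

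Set against Mild PE directly, Severe PE differed in 136 probesets at 2 h (0.438%), with 43 genes higher (0.302%) and 35 lower (0.246%). Areg, Ereg, Dnajb1, Hspa1a and Egr1 were among the genes higher after the larger dose, and Tnf was lower. The injected volume differed with the dose, being 0.15 ml per 100 g in Severe PE and Vehicle and 0.1 ml in Mild PE, so that dose and volume cannot be told apart. Without Severe PE array 1, of high 3′ signal, the count was 346, without Severe PE array 4 it was 73, and without 1 of the Mild PE arrays it was 44 to 55. Areg stood at 9.78, 9.82, 9.24 and 10.03 in Severe PE and at 8.05, 7.64, 7.7 and 7.69 in Mild PE (1.94 ± 0.18, limma adjusted p = 0.014), while Vehicle rats lay at 7.88 to 8.28. Ereg was higher by 1.16 ± 0.13 (adjusted p = 0.0237), with 6.36, 6.2, 6.14 and 6.05 in Mild PE. For both genes the Mild PE and Vehicle rats overlapped. The third ligand, Hbegf, differed by 0.8 (adjusted p = 0.0669), and the cochaperone Bag3 by 0.57 (adjusted p = 0.112), and neither passed. Dnajb1 was higher by 1.27 ± 0.1 (adjusted p = 0.00836), with 11.49, 11.54, 11.53 and 11.41 in Mild PE, and the single-gene probeset of Hspa1a by 1.85 ± 0.27 (adjusted p = 0.0498). Fos was higher by 1.31 ± 0.14 (adjusted p = 0.0208), Bhlha15 by 1.04 ± 0.11 (adjusted p = 0.0208), Adora2b by 0.95 ± 0.12 (adjusted p = 0.0322), Pvr by 0.92 ± 0.13 (adjusted p = 0.0494), Egr1 by 0.78 ± 0.08 (adjusted p = 0.0148) and Phlda1 by 0.76 ± 0.1 (adjusted p = 0.0421).

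Tnf ran the other way between the doses, with 9.45, 10.4, 9.48 and 9.71 in Severe PE and 11.71, 11.47, 11.25 and 11.4 in Mild PE (-1.69 ± 0.23, limma adjusted p = 0.0398). All 8 embolized rats lay above the Vehicle rats. A second Tnf probeset, of lower signal, differed between the doses by -1.9 ± 0.28 and did not pass (limma adjusted p = 0.0525). Il10, an anti-inflammatory cytokine, chosen here after its values were seen, read 4, 4.9, 4 and 4 in Severe PE and 7.28, 6.71, 7.3 and 6.35 in Mild PE (adjusted p = 0.0237), and all 3 Vehicle rats were at the floor. For C2cd4b all 4 Mild PE rats read 4, the floor, which is below the Vehicle rats. Its difference between doses (4.34 on the floored scale, adjusted p = 3.23e-06) is thus taken against a group without a measured level. Differences against Vehicle share the same 3 Vehicle rats for both doses. For Nr4a3 they were 3.22 in Severe PE and 2.8 in Mild PE, for Cxcl2 3.18 and 3.8, for Ccl2 4.17 and 3.61, and for Nfkbia 0.64 and 0.75. The direct difference between the doses did not pass the test for any of these 4 genes (adjusted p = 0.502, 0.407, 0.599 and 0.77), which does not show that the doses acted alike.

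**Figure D4:**
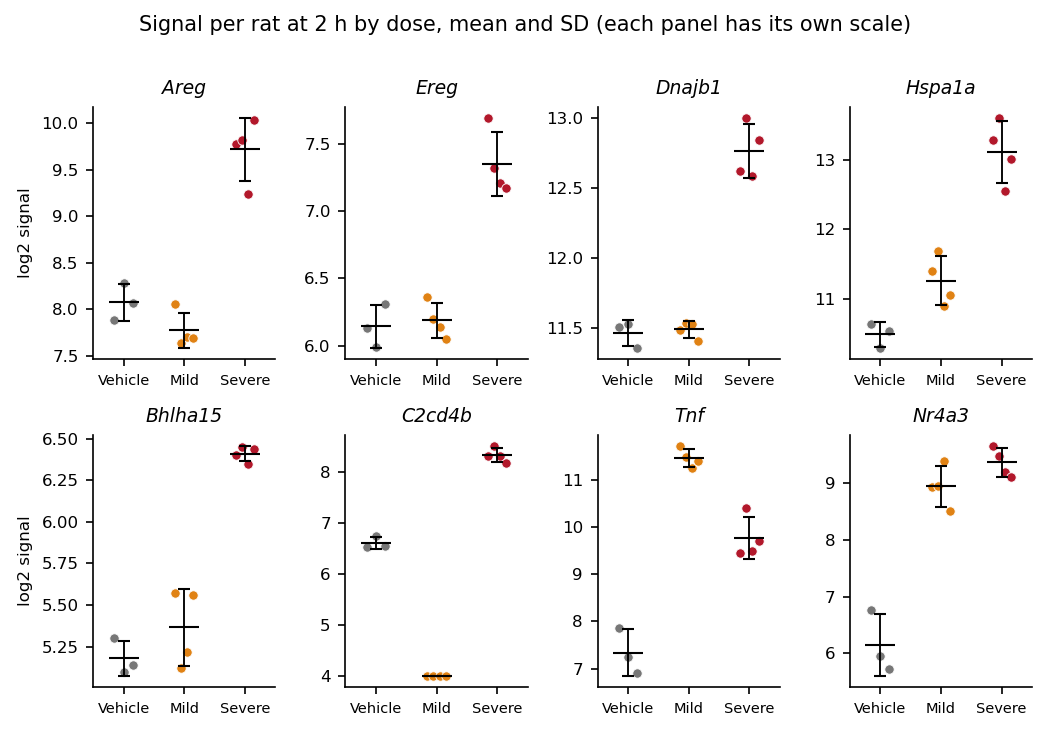
Log2 signal of 8 genes in each rat at 2 h after Vehicle (n = 3), Mild PE (n = 4) and Severe PE (n = 4), with the mean and SD of each group and a separate scale for each gene. All Severe PE rats lie above all Mild PE and Vehicle rats for Areg, Ereg and Dnajb1, Tnf is highest after Mild PE, and each Mild PE rat reads 4, the floor, for C2cd4b.

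At 18 h, with other rats in both groups, some of the genes higher at 2 h were higher again and others were not. Of the 282 genes higher at 2 h with no overlap, 106 (37.6%) were higher by the same rule at 18 h, when 7.76% of all genes were. These 106 are 9.61% of the 1103 genes higher at 18 h. A further 9 of the 282 (3.19%) were lower at 18 h, when 9.73% of all genes were. Of the 135 lower genes, 20 (14.8%) were lower again, which is 1.45% of the 1383 genes lower at 18 h. The effect at 18 h minus that at 2 h, tested with all 22 arrays, passed for 1778 probesets (5.73%). Over all 14217 genes, those that passed had an effect at 18 h below that at 2 h in 691 and above it in 478. Among the 113 genes higher at 2 h in the fit on 22 arrays, it was below for 37 and above for 1, Timp1, which is given as a description because these genes were chosen by the 2-h values that the contrast uses again. Without Severe PE array 1 at 2 h, the 1778 probesets became 3085. Among the 22 arrays, 18-h Vehicle array 1 had the largest excess of the Gapdh 3′ signal (0.638), and without it the count was 1450.

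Some heat shock and early transcription factor genes had a smaller effect at 18 h. Hspa1a differed from Vehicle by -0.45 at 18 h and by 2.62 at 2 h (difference of the effects -3.07, limma adjusted p = 0.000212), and Dnajb1 by 0.03 and 1.29 (-1.27, adjusted p = 0.000368). Egr1 differed by 0.85 at 18 h and 3.18 at 2 h (-2.33, adjusted p = 0.019), Atf3 by 1.06 and 2.71 (-1.65, adjusted p = 0.00575), and Junb by 1.09 and 2.37 (-1.28, adjusted p = 0.012). Fos (-1.62, adjusted p = 0.111), Nr4a3 (-1.02, adjusted p = 0.139) and Egr2 (-0.86, adjusted p = 0.319) did not pass. All of these genes were named for their 2-h values. Mean Egr1 in Severe PE and Vehicle was 13.39 and 10.21 at 2 h, and 12.52 and 11.67 at 18 h. The 18-h Vehicle rats read 10.51, 11.73 and 12.77 for Egr1. Mean Junb was 11.55 and 9.18 at 2 h, and 11.28 and 10.19 at 18 h. The smaller effect in these genes thus came partly with higher Vehicle rats at 18 h. Mean Hspa1a went from 13.11 at 2 h to 10.75 at 18 h in Severe PE, and from 10.49 to 11.19 in Vehicle. The effects of several chemokines and cytokines were not shown to differ between the times. For Ccl2 they were 4.05 at 18 h and 4.17 at 2 h (adjusted p of the difference = 0.978), for Il6 3.43 and 3.98 (0.799), for Cxcl2 2.33 and 3.18 (0.244), and for the receptor gene Pvr 1.49 and 1.93 (0.265). A larger effect at 18 h was found for Orm1, Mt2A and Timp1. Orm1, an acute phase glycoprotein, differed by 3.83 at 18 h and 0.28 at 2 h (3.55, adjusted p = 0.000762), Mt2A by 4.41 and 1.05 (3.36, adjusted p = 0.00291), and Timp1 by 2.86 and 0.64 (2.22, adjusted p = 6.68e-07).

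**Figure D5:**
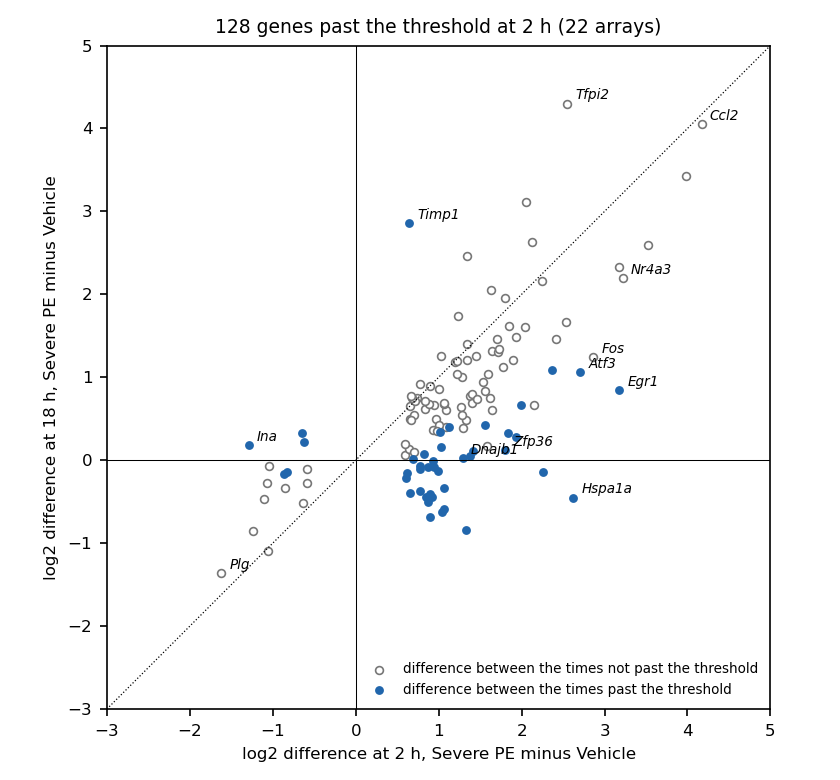
The 128 genes past the threshold at 2 h in the fit on 22 arrays, with the log2 difference of Severe PE minus Vehicle at 2 h on the x axis and at 18 h on the y axis, and equal effects on the dotted diagonal. Filled points are the 43 genes whose difference between the times passed the test, of which 37 were higher at 2 h and lie below the diagonal, and the genes were chosen by their 2-h values.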

How the data were processed

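Right lung RNA of 7 rats (Severe PE, n = 4, and Vehicle, n = 3, both 2 h) was compared, with the other 15 arrays used for normalization, dose and time. The values deposited by the authors are linear signal intensities per probeset, each array having been brought to a common 2% trimmed mean near 500. The methods describe GC-RMA values, so these are another summary of the same arrays, and how the probes were summarised is not given in the sources used here. The 57 control probesets were left out, leaving 31042. Values below 16 were raised to 16 (4 on the log2 scale), and the log2 values of the 22 arrays were quantile normalized together.

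Differences were tested with limma 3.58.1 in R 4.3.3 (lmFit and eBayes without a trend) on the groups compared, with Benjamini-Hochberg adjustment over all probesets. The difference between times was a contrast in a fit on all 22 arrays. The script was tested on simulated data. The rats are separate animals, and 3 and 4 arrays limit the precision. The array annotation gave 20826 probesets 1 symbol, 436 several and 9780 none. Each of 14217 genes was represented by its single-symbol probeset of highest mean signal. Named genes are those with a changed probeset, the 15 largest positive and 10 largest negative differences without overlap, and up to 3 members of each list with the smallest p. The lists and comparisons were chosen with earlier results of these data known. Promoters are from RefSeq (GRCr8), 1 window per gene.

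Alternatives were median centring, no normalization, a floor of 64, the brighter probesets only, a variance trend, the methods' t-test, fits on 11 or 22 arrays, the replicate number as a block, the 3′ signal as a covariate, array weights, the mean of a gene's probesets, and arrays left out. Those for the dose comparison, the arrays left out for the contrast of times and the list counts and marker sums without the 2 arrays of high 3′ signal were chosen after seeing the data.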

Additional observations from a re-analysis of the deposited data

Results flagged for a closer look

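A named gene is given here when 1 of the 4 Severe PE rats lay far from the other 3 (the gap to its neighbour over the range of the group exceeded Dixon's limit), which chance alone gives in about 1 group in 20. This gap was 0.861 for Junb (array 2 high), 0.911 for Ptger2 (array 2 high), 0.876 for Krt19 (array 1 low), 0.833 for Nt5dc1 (array 1 low) and 0.929 for Plg (array 3 high). It was 1 for Ftcd, Klrb1c and Tmem182, where the other 3 rats were tied at the floor.

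The other genes are given because the effect of Severe PE at 18 h minus that at 2 h passed the contrast test. The effect was smaller or more negative at 18 h for Hspa1a (-3.07), Egr1 (-2.33), Cyp2f4 (-1.67), Atf3 (-1.65), Nfkbid (-1.65), Ier3 (-1.33), Junb (-1.28), Dnajb1 (-1.27), Bag3 (-1.03), Krt19 (-0.89), Herpud1 (-0.85) and Kdr (-0.7). It was more positive for Orm1 (3.55), Mt2A (3.36), Saa3 (3.2), Coch (2.75), Cd163 (2.4), Timp1 (2.22), A2m (1.86), Nr5a2 (1.77), Ina (1.46), Slc39a14 (1.25) and Fdft1 (0.97). For Coch, Ina and Nr5a2, at least 1 Severe PE array at 2 h was at the floor.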

How the results depend on the processing

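The number of changed probesets, 7 with the 7 arrays, was 19 with median centring, 60 among the brighter probesets, 32 with the 3′ signal as a covariate, 31 with array weights, 126 with 11 arrays in the fit and 188 with 22, 3 by the methods' t-test, and 0 without the 2 arrays of high 3′ signal. With 1 array left out it ranged from 0 to 16, and every array except Severe PE array 1 moved it by over 1.5 times (without that array 7 probesets passed, of which 2 were among the first 7). With the replicate number as a block it was 0 (and 1 in place of 136 between the doses). The numbers only name the rats, with residual correlations of -0.217, 0.044 and -0.273 between arrays of the same number. The 90 list members without overlap became 78 to 109 under the alternatives. The contrast of times, 1778 probesets, became 974 with 14 arrays in the fit, and 1242 to 3085 with 1 array left out. The dose count became 44 to 346 with 1 array left out. No named gene changed the sign of a called difference. The causes were not tested.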
